A study of Sus scrofa with 8 samples.

Results

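The guanylate-binding protein genes are described here by the 2 members that the deposited pig gene table lists under the symbols GBP1 and GBP2 (ENSSSCG00000024973 and ENSSSCG00000006923), of 35683 genes in all. They were chosen by name, with earlier results of these data known though none of these genes' values enters the rule, and their unique molecular identifiers (UMIs, each marking 1 captured transcript) were summed per retina within classes of nuclei. MX1 (ENSSSCG00000012077), an antiviral GTPase known as a readout of type I interferon, was set beside them. The data are single-nucleus RNA sequencing of 8 retinas from 6 female Yucatan minipigs aged 3 to 5 months. The week 2 retinas are the left and right eyes of animal 7221, given AAV, and of animal 7222, given vehicle. The week 4 retinas are left eyes, from 7248 and 7249 (AAV) and from 7250 and 7251 (vehicle). AAV-injected eyes had received 5e11 vector genomes of AAV2.7m8/CAG-GFP, an adeno-associated virus in which a broadly active promoter drives green fluorescent protein, by injection into the vitreous. All animals, the vehicle controls too, had been given intravitreal hyaluronidase 2 weeks earlier and repeated intramuscular methylprednisolone, a corticosteroid, so no group shows these genes without a steroid. Some week 4 animals of the study were killed before the planned day because of inflammation, and the labels do not say whether any of these animals was among them. Each of the 4 groups carries its own batch label, and the effects of batch and treatment cannot be told apart.

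Guanylate-binding proteins are large GTPases of the dynamin superfamily that assemble on the membranes of intracellular pathogens and the vacuoles around them, help to break these open, and feed inflammasome sensing. Their genes are classical targets of interferon gamma, a cytokine made mainly by T and NK cells, which acts through the receptor subunits IFNGR1 and IFNGR2 and, further down, the transcription factor IRF1. Type I interferons also induce them, so a rise in a GBP gene alone does not name the cytokine, whereas MX1 responds chiefly to type I and type III interferons.

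In the RefSeq annotation of Sscrofa11.1, the build that the authors used, GBP1 lies on chromosome 4 at 127425699-127442132 on the plus strand and GBP2 at 127387222-127408729 on the minus strand. The pair is arranged head to head with 16969 bases between their 5′ ends. Another 5 RefSeq genes with a guanylate-binding product but no GBP symbol lie beside them, between 127177337 and 127376858, and how far reads are shared among family members was not measured, so the split of UMIs between them is uncertain. MX1 lies on chromosome 13. The 250 bases before the annotated 5′ end of each member are shown because both genes are read as interferon targets. They were searched on both strands for the core of the interferon-stimulated response element (GAAA, any 2 bases, GAAA) and for TTCNNNGAA, the core of the gamma-activated site. A match would be in capitals, and each sequence is from RefSeq, 5′ to 3′ in the direction of the gene.
GBP1 (chr4:127425449-127425698, plus strand): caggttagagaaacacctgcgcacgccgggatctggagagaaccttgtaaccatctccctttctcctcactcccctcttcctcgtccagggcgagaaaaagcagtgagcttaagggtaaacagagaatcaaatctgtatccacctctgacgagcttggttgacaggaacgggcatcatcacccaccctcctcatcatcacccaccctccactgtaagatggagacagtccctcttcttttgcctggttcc
GBP2 (chr4:127408730-127408979, minus strand): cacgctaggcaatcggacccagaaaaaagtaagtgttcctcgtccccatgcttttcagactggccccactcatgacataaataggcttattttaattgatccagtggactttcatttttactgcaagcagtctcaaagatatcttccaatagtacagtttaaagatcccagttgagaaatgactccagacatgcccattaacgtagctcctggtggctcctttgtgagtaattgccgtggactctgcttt
Neither motif occurred in the GBP1 or the GBP2 window. Among 28223 RefSeq genes, windows of the same length held the first motif in 3.32% and TTCNNNGAA in 6.15%. GBP1 has other annotated starts 686 and 705 bases downstream, and the 250 bases before the nearer of these held 0 matches. The absence of a match says only that these letters are not in these windows.

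Nuclei were assigned to 14 classes by markers: at least 3 of 10 class markers with a UMI, and at least 2 more than for any other class. Of 350537 nuclei kept, 252851 (72.1%) were assigned, and the ungated nuclei held 33.3% to 52.1% of the GBP1 UMIs of a retina. Total UMIs per retina ran from 121544835 to 173614051. The best other class had a median of 1 or 2 markers in every class, but the gate itself limits this number, so it does not measure purity. Of the gated nuclei, 51954 sat at the edge of the gate. Classes with at least 20 nuclei in each week 4 retina were tested, which left 8: rods, cones, bipolar, amacrine, horizontal and retinal ganglion cells, Müller glia and myeloid cells. At week 4 the AAV-injected retinas held 954 and 622 myeloid nuclei and 759 and 628 T or NK nuclei, against 23 and 21 myeloid and 0 T or NK nuclei in the vehicle retinas. Values are UMIs of the gene scaled to 1000000 UMIs of the class (CPM), and intervals in brackets are exact 95% Poisson intervals that cover counting error only. Since nuclei of 1 retina share their animal, comparisons are between animals, and in a class sum more nuclei with a transcript and more transcripts per nucleus cannot be told apart.

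GBP1 was higher in AAV-injected than in vehicle retinas at week 4 in 8 of the 8 classes tested, from photoreceptors to glia and myeloid cells. Among the 7 classes with GBP1 UMIs in the controls, the fitted increase was largest in ganglion cells and Müller glia and smallest in bipolar cells and cones. In the vehicle retinas GBP1 was low in every tested class, between 0 and 7.84 CPM. At the same threshold, 5.79% of genes tested in rods, 0.831% in cones, 1.48% in bipolar cells, 1.44% in amacrine cells, 3.59% in horizontal cells, 1.61% in ganglion cells, 8.71% in Müller glia and 3.11% in myeloid cells were called higher in AAV. The calls rest on edgeR's quasi-likelihood test of 2 against 2 animals, adjusted over all genes of a class by the Benjamini-Hochberg method.

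In ganglion cells, the output neurons of the retina, GBP1 stood at 219.9 CPM (95% interval 201.6 to 239.4) in animal 7248 and 128.5 (112.5 to 146.0) in animal 7249. The vehicle retinas had 3.37 (1.24 to 7.33) in 7250 and 4.15 (1.90 to 7.87) in 7251. Both AAV-injected retinas lay far above both controls, at a mean of 174.2 ± 64.7 against 3.76 ± 0.551 (SD, n = 2 animals each), a log2 fold change of 5.58 ± 0.343 (SE, edgeR adjusted p = 3.07e-07). Müller glia, the radial support cells that span the retina, had 102.3 and 83.55 CPM against 3.77 and 3.55. Their log2 fold change was 4.65 ± 0.216 (SE, edgeR adjusted p = 2.81e-06), and the groups did not overlap. It was 4.05 with the stricter gate and 5.69 with cluster-based classes. Gated Müller nuclei themselves differed, with 630 and 266 nuclei at medians of 6072.5 and 6117.5 UMIs in the AAV-injected retinas against 2005 and 1981 at 2453 and 2268 in the controls, and the part of this in the values was not tested. Whether the change differed between ganglion cells and Müller glia was not tested.

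Among the interneurons, amacrine cells, which carry lateral signals in the inner retina, reached 42.2 and 49.9 CPM against 3.65 and 3.82 (log2 fold change 3.61 ± 0.187 SE, edgeR adjusted p = 4.69e-06). Horizontal cells, their counterpart in the outer retina, had 93.9 and 44.3 CPM against 4.23 and 7.84, with 18 UMIs in the controls together (3.43 ± 0.469 SE, edgeR adjusted p = 0.00339). The horizontal cells of the 2 AAV-injected animals thus differed by 2.12 times, the widest gap between these animals in any tested class, and without animal 7248 the log2 fold change was 2.74. Bipolar cells, which relay photoreceptor signals, had 18.04 and 12.58 CPM against 2.95 and 3.54 (2.26 ± 0.246 SE, edgeR adjusted p = 0.00641). In the photoreceptors, as in bipolar cells, the level stayed low in absolute terms although the direction was the same. Rods had 21.3 and 13.97 CPM against 2.55 and 2.24 (2.96 ± 0.243 SE, edgeR adjusted p = 0.00316). Cones had 12.5 and 8.66 CPM against 2.01 and 1.52 (2.62 ± 0.285 SE, edgeR adjusted p = 0.0127), and without vehicle animal 7251 the cone call was lost at edgeR's adjusted p = 0.0599, with a log2 fold change of 2.41.

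Myeloid nuclei, the gate of microglia and macrophages, carried 763 and 499 GBP1 UMIs in the AAV-injected retinas (265.8 and 223.5 CPM) and 0 in each vehicle retina. The controls held few such nuclei, and 3 counts over both of them set the floor, against which the AAV-injected retinas were at least 6.71-fold higher. The call in this class held at edgeR's adjusted p = 0.00903. Without animal 7248 the gene did not pass the filter on low counts in this class. In myeloid cells the median log2 fold change of all genes was 0.37, and 0.04 over the same 9694 genes without TMM scaling. DESeq2, which here changes both the scaling and the genes tested (23052), gave -0.81, and GBP1 lay above the median in each. The gate does not separate resident from infiltrating cells, whose shares in each arm were not measured. B or plasma markers in these nuclei were at 2008 and 2216 CPM in the AAV-injected retinas against 120.1 and 49.2 in the controls, and T or NK markers at 191.6 and 302.4 against 48.0 and 49.2. Their part in the myeloid GBP1 values was not tested.

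T or NK and B or plasma nuclei were gated at week 4 only in the AAV-injected retinas, so they have no control. GBP1 was at 441.8 (405.0 to 481.0) and 350.4 (314.8 to 388.9) CPM in T or NK nuclei and at 449.1 (377.3 to 530.5) and 295.5 (246.9 to 350.9) in B or plasma nuclei. Endothelial nuclei, from the vessel wall, were too few for a test at 10 to 61 a retina. Their GBP1 level was 358.9 and 410.7 CPM in the week 2 eyes with AAV against 53.5 and 81.8 with vehicle, and 308.0 and 465.3 against 28.7 and 47.3 at week 4. Endothelial cells thus had the highest GBP1 level among the gated classes of the vehicle retinas, from 10 UMIs at week 2 and 3 at week 4. In mural nuclei, the pericytes and smooth muscle of the vessels, 17 of the 19 UMIs of the week 4 AAV-injected retinas came from 11 nuclei of animal 7248, and the value for animal 7249 was 18.9 CPM. Astrocyte nuclei numbered at most 9 in a retina and are not described further.

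**Figure D1:**
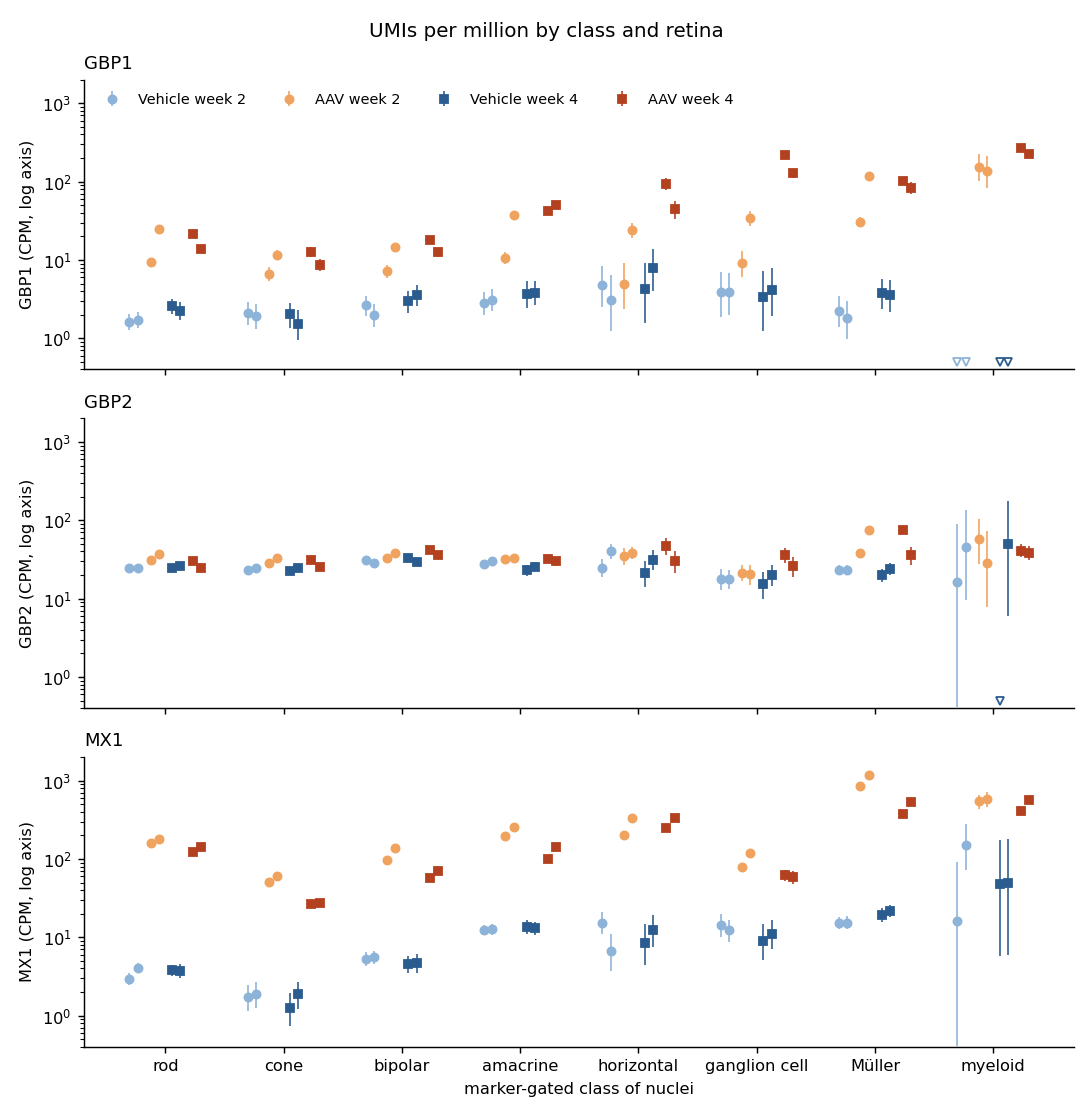
CPM (log axis) of GBP1, GBP2 and MX1 in the 8 tested classes, 1 point per retina with its exact 95% Poisson interval, circles for week 2 and squares for week 4. Open triangles at the foot mark retinas with 0 UMIs, and intervals that run below the axis are clipped. GBP1 and MX1 of the AAV-injected retinas stand above the controls of the same week. For GBP1 in horizontal cells at week 2 the margin is 4.94 against 4.85 CPM, and this AAV value lies below a week 4 control (7.84). GBP2 lies near 20 to 40 in nearly all classes and departs from its controls mainly in Müller glia.

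GBP2 behaved differently from its neighbour on the chromosome. It was present at a steady level in the controls of all neuronal classes and of Müller glia, between 15.2 and 40.01 CPM, and passed the test in 1 of 8 classes, Müller glia, where 8.71% of genes were called higher. Its unadjusted p was under 0.05 in 4 classes. At that cut were 3352 of 18962 genes tested in bipolar, 2711 of 17183 in amacrine and 1675 of 12085 in ganglion cells. In Müller glia 4889 of 15141 genes were. DESeq2 also called GBP2 in 1 class, Müller glia, where 722 of 27064 genes were called higher. In Müller glia it stood at 74.4 and 35.6 CPM in animals 7248 and 7249 against 19.7 and 23.9 in 7250 and 7251. The means were 55.0 ± 27.4 and 21.8 ± 2.96 (SD, n = 2 animals each), a log2 fold change of 1.37 ± 0.298 (SE, edgeR adjusted p = 0.0131). Animal 7248 carries this call: without it the log2 fold change was 0.71 at edgeR's adjusted p = 0.0878.

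In the other 7 classes GBP2 did not pass. Ganglion cells had 35.6 and 25.8 CPM against 15.2 and 19.8, without overlap, at a log2 fold change of 0.88 ± 0.267 (SE, edgeR adjusted p = 0.131). This value passed with a looser gate (log2 fold change 1.11, edgeR adjusted p = 0.0276) and without animal 7249 (1.10, edgeR adjusted p = 0.00772). The fitted values of the other neuronal classes lay between 0.20 in rods and 0.47 in horizontal cells. Rods had 30.03 and 24.7 CPM against 24.6 and 26.3, so that 1 AAV-injected retina lay inside the range of the controls. In cones, bipolar and amacrine cells both AAV-injected retinas were above both controls, by 1.19, 1.27 and 1.28 times in the means (edgeR adjusted p = 0.333, 0.223 and 0.279). The share of all genes that separate the retinas in this way, in these classes or in ganglion cells, is not given here. The separation alone is therefore not read as a change of GBP2. Myeloid nuclei had 41.1 and 38.5 CPM from 204 UMIs, against 0 and 49.2 CPM from 2 UMIs, so that a difference was not detectable at this depth.

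Outside the tested classes GBP2 was at 94.0 and 91.3 CPM in T or NK nuclei and at 52.1 and 34.1 in B or plasma nuclei of animals 7248 and 7249. In endothelial nuclei it was at 103.4 to 134.7 CPM in the 4 AAV-injected retinas and at 0 to 23.7 in the 4 vehicle retinas, with 1 UMI in the controls of each week. The exact 95% Poisson intervals of the vehicle values reached up to 65.1 to 131.9 CPM, so a level like that of other classes cannot be told from a lower one at this depth.

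MX1 passed the test in 8 of the same 8 classes, with log2 fold changes from 2.63 ± 0.237 in ganglion cells to 5.23 ± 0.163 in rods (SE, edgeR adjusted p = 1.74e-05 and 0.000336). The order of the classes differed between the genes. Rods and cones had a larger fitted change of MX1 (5.23 and 4.19) than of GBP1 (2.96 and 2.62), Müller glia had nearly equal ones (4.45 and 4.65), and ganglion cells had a smaller one of MX1 (2.63) than of GBP1 (5.58). Among the 7 classes with GBP1 UMIs in the controls, ganglion cells had the smallest MX1 change, and the largest GBP1 change except with cluster-based classes (Müller glia 5.69, ganglion cells 5.40) and with 6 animals of both weeks (Müller glia 4.93, ganglion cells 4.36).

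**Figure D2:**
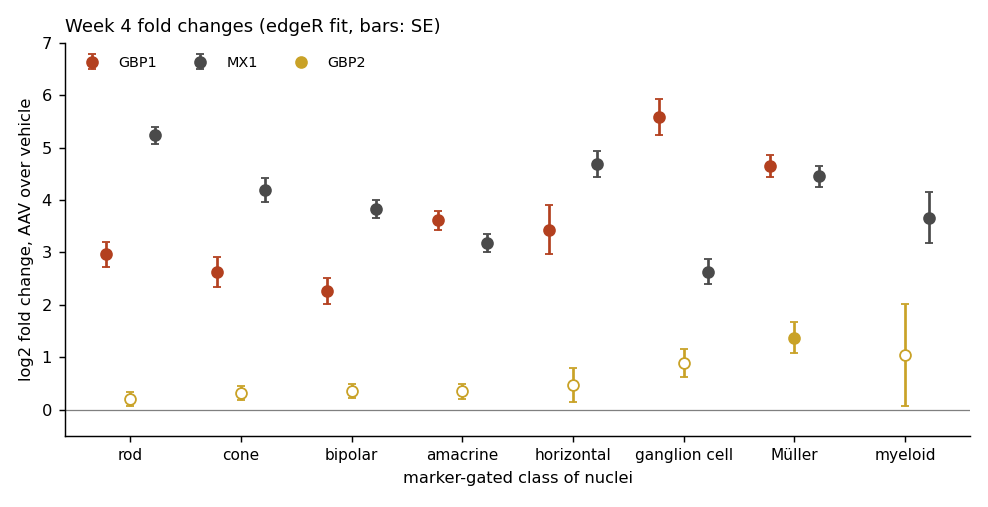
Fitted log2 fold change of AAV over vehicle at week 4 in each tested class (edgeR, bars are SE, 2 against 2 animals), filled where the adjusted p is under 0.05 and open where it is not. GBP1 in myeloid nuclei is left out because its controls held 0 UMIs. GBP1 exceeds MX1 in ganglion cells (5.58 against 2.63) and lies below it in rods (2.96 against 5.23), and GBP2 is filled in Müller glia alone.

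The ratio of GBP1 to MX1 UMIs within the same nuclei sets both readouts against each other without a scaling step. Its absolute value also depends on transcript length and capture, so only differences between classes and retinas are read. In ganglion cells the ratio was 3.56 (95% binomial interval 2.97 to 4.30) in animal 7248 and 2.21 (1.75 to 2.80) in animal 7249. The 4 vehicle retinas had 0.2703 to 0.375, and the week 2 AAV eyes 0.116 (0.0758 to 0.170) on the left and 0.286 (0.22 to 0.369) on the right. The ganglion cells of the AAV-injected retinas at week 4 thus held several GBP1 UMIs for each MX1 UMI, above all other retinas. In means this was 2.89 ± 0.959 against 0.375 ± 0 at week 4 (SD, n = 2 animals each, exact permutation p = 0.333, the smallest that 2 against 2 animals can give). The control ratios rest on 6 and 9 GBP1 UMIs, and the SD of 0 does not make them exact. Their 95% binomial intervals were 0.120 to 1.01 in 7250 and 0.153 to 0.836 in 7251.

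In rods, cones, bipolar and horizontal cells both AAV-injected retinas of week 4 lay below both controls instead, and in amacrine cells above them. In rods the ratio was 0.173 and 0.0989 in the AAV-injected retinas of week 4 against 0.672 and 0.604 in the controls, and in cones 0.468 and 0.314 against 1.63 and 0.815. Bipolar cells had 0.312 and 0.177 against 0.650 and 0.754, and horizontal cells 0.383 and 0.134 against 0.5 and 0.632. Amacrine cells had 0.423 and 0.356 against 0.27 and 0.295, and Müller glia 0.271 and 0.156 against 0.194 and 0.162, where the groups overlapped. All these differences met the same smallest exact permutation p of 0.333 except that of Müller glia at 1, so none reached 0.05. Among immune nuclei the ratio was 1.10 and 0.706 in T or NK, 1.00 and 0.625 in B or plasma, and 0.641 and 0.394 in myeloid nuclei. In animal 7248 it was higher than in animal 7249 in 8 of the 8 tested classes.

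**Figure D3:**
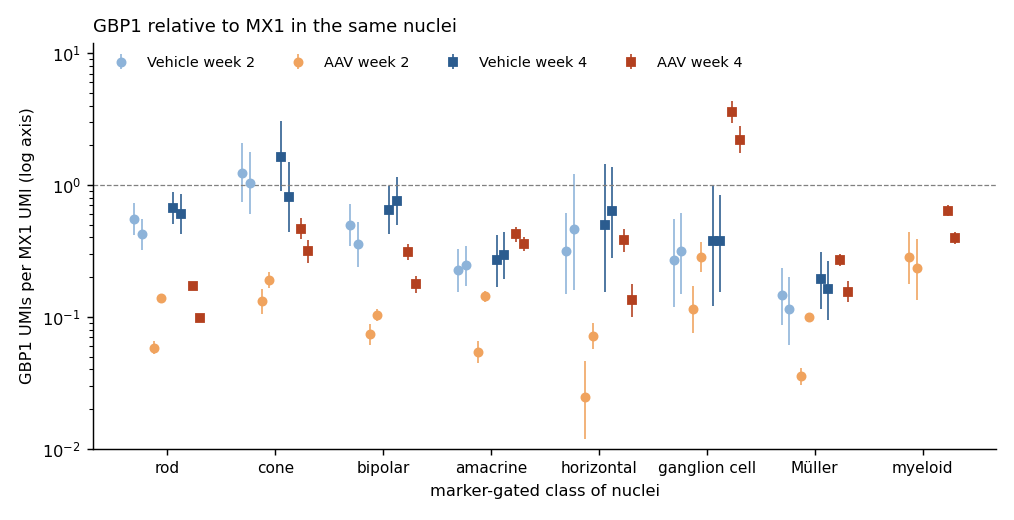
GBP1 UMIs per MX1 UMI (log axis) in each tested class, 1 point per retina with its exact 95% binomial interval, and a dashed line where both counts are equal. Retinas without a GBP1 UMI, the myeloid controls, are left out. In ganglion cells the week 4 AAV-injected retinas (3.56 and 2.21) stand above the line and above every other retina, while in rods, cones, bipolar and horizontal cells all AAV-injected retinas lie below their controls.

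The ratio of GBP2 to MX1 UMIs at week 4 was lower in both AAV-injected retinas than in both controls in the 6 neuronal classes and Müller glia (exact permutation p = 0.333 each, the smallest possible with 2 animals a group). In ganglion cells it was 0.577 and 0.443 against 1.69 and 1.79, and in Müller glia 0.197 and 0.0664 against 1.02 and 1.09.

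Ganglion cell nuclei were deep enough to look at GBP1 nucleus by nucleus, with a median of 19147 to 26068.5 UMIs each. At week 4, 58 of 96 nuclei of animal 7248 and 49 of 76 of animal 7249 held a GBP1 UMI, 60.4% (95% exact binomial interval 49.9 to 70.3) and 64.5% (52.7 to 75.1). In the vehicle retinas the shares were 5 of 76 and 8 of 107 nuclei (6.58% and 7.48%). With each nucleus thinned to 1000 UMIs, which left out 1 ganglion cell nucleus in all, the shares were 16.4% and 11.7% against 0.378% and 0.339%. Nuclei with 10 or more GBP1 UMIs made up 19.8% and 11.8% of the ganglion cells of the AAV-injected animals and 0 of 76 and 0 of 107 nuclei in the controls. With 3 nuclei taken as the bound of a count of 0, in place of an exact binomial limit, control shares of up to 3.95% and 2.80% remain possible. Rods, which are shallower, held at least 1 GBP1 UMI in 3.45% and 2.83% of nuclei against 0.517% and 0.463%, at median depths of 1600 to 2267 UMIs, or 1.495% and 1.11% against 0.239% and 0.217% after the same thinning. In Müller glia the thinned shares were 7.57% and 7.32% against 0.328% and 0.298%. The 10 and 8 ganglion cell nuclei with the most GBP1 UMIs held 47.8% and 42.7% of those in their retina.

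At week 2 the same class looked otherwise. In the AAV-injected eyes 19 of 116 nuclei on the left and 16 of 90 on the right held a GBP1 UMI (16.4% and 17.8%), against 9.01% and 8.51% with vehicle. In the right eye 9 nuclei carried 88.6% of the 79 UMIs, with up to 15 in a nucleus, so that its higher level came from a few nuclei. At least 1 MX1 UMI was found in more of these nuclei at that time, 75.0% on the left and 84.4% on the right. With each nucleus thinned to 1000 UMIs these shares were 7.95% and 11.4%. The MX1 level of these ganglion cells (79.35 and 119.8 CPM) lay below that over all nuclei of the same eyes (222.6 and 309.7). The part of RNA from other cells in the MX1 shares was not tested.

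**Figure D4:**
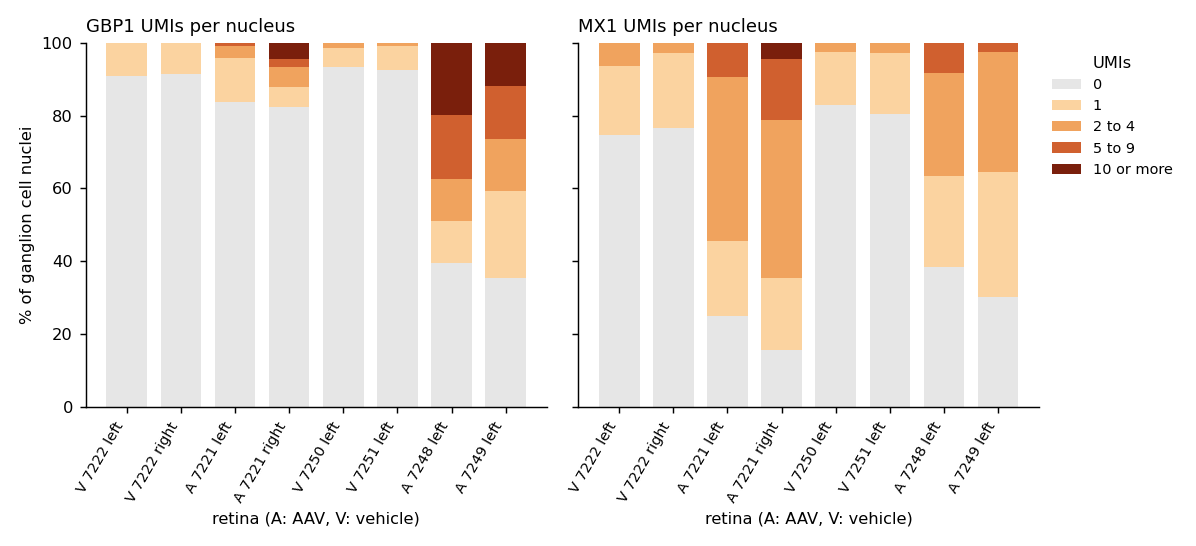
Percent of ganglion cell nuclei of each retina (A, AAV; V, vehicle) by their number of GBP1 UMIs (left) and MX1 UMIs (right). GBP1 was found in over 60% of nuclei of both AAV-injected retinas of week 4 and in 6.58% to 9.01% of nuclei of the vehicle retinas. At least 1 MX1 UMI was found in 61.5% to 84.4% of nuclei in the AAV-injected eyes of both weeks. The shares are not thinned to equal depth.

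Nuclei of ganglion cells with GBP1 in the week 4 AAV-injected retinas were deeper than those without (medians of 24929.5 against 20998.5 UMIs in animal 7248, 24050 against 21889 in 7249), with medians of 5 and of 5 or 6 ganglion markers. MX1 was at 71.0 CPM in those with GBP1 against 45.5 in those without in animal 7248, and at 67.8 against 40.5 in 7249. These nuclei were chosen by their GBP1 count, and the split is a description without a test. EGFP, the transgene, was detected in 56.9% of the nuclei with GBP1 and 39.5% of those without in animal 7248, and in 69.4% and 25.9% in animal 7249. In the right eye of week 2, 16 of the 16 GBP1 nuclei held EGFP, as did 82.4% of the rest, and no ganglion cell nucleus of a vehicle retina held it. There too the nuclei with GBP1 were deeper (27441 against 22841.5 UMIs), and since the EGFP shares were not taken at equal depth, the part of depth in them was not tested. The level of GBP1 in EGFP-positive over EGFP-negative ganglion cell nuclei was 1.28 times in animal 7248, 2.27 in 7249 and 1.08 in the left eye of 7221, the last from 9 UMIs in negative nuclei. Over the 8 tested classes this ratio was above 1 in 4 (left eye of 7221), 5 (7248) and 5 (7249), with medians of 0.979, 1.21 and 1.22. In the right eye of 7221 it was above 1 in 6 of 7 classes, with a median of 1.48. It had no value in ganglion cells there, where all 79 GBP1 UMIs lay in the 77 EGFP-positive nuclei and only 13 nuclei were negative. The myeloid ratios of 7221 rest on 2 and 5 EGFP-positive nuclei in the left and right eyes. For MX1 the ratio was above 1 in 6 of 8 classes in each of the AAV-injected retinas, with medians from 1.03 to 1.32.

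The summed level of immune cell markers was higher in both AAV-injected retinas of week 4 than in both controls in all 7 tested classes outside the myeloid one. The sum of 30 myeloid, T or NK and B or plasma markers in rods was 184.5 and 142.8 CPM in the week 4 AAV-injected retinas, with all 30 markers found, against 67.7 and 67.0 with 28 found. PTPRC, the pan-leukocyte marker CD45, was at 10.4 and 7.09 CPM in rods against 0.36 and 0.53, and at 4.90 and 3.72 in cones against 0.13 and 0. The sums were 112.7 and 105.2 against 43.1 and 61.1 in cones, 215.1 and 206.9 against 153.4 and 127.7 in bipolar cells, 106.4 and 111.4 against 73.2 and 64.8 in amacrine cells, 324.1 and 328.6 against 323.4 and 276.4 in horizontal cells, and 144.4 and 142.0 against 110.0 and 88.2 in Müller glia. In ganglion cells the sum was 84.5 and 80.2 CPM with 23 and 22 markers found, against 60.1 and 51.1 with 17 and 19. Of the defining markers in ganglion cells, CSF1R had 0 and 1 UMIs against 2 and 1 in the controls, and CD3E 4 and 5 against 1 and 1. In the left and right eyes of week 2, CD3E had 9 and 3 UMIs with vehicle and 1 and 0 with AAV. The CD3E counts of the week 4 AAV-injected retinas thus lay within the range of all vehicle retinas. At week 4, among the 30 markers, CX3CR1, CD2, IL7R and MZB1 were at 0 in both controls and found in both AAV-injected retinas. CD79A went the other way. Of the B or plasma markers, MS4A1 and CD79B were at 0 in both arms, and PAX5 and BANK1 were found in all 4 retinas. Their whole list stood at 27.75 and 28.55 CPM (67 and 52 UMIs) in ganglion cells against 16.28 and 11.52 (29 and 25 UMIs). The T or NK list was at 30.65 and 24.16 CPM against 19.64 and 22.11, and the myeloid list at 26.09 and 27.45 against 24.13 and 17.51. For each UMI of these 30 markers there were 2.60 and 1.60 GBP1 UMIs in ganglion cells and 0.709 and 0.588 in Müller glia. Amacrine cells had 0.396 and 0.448, and horizontal cells 0.290 and 0.135. The ratio was 0.0606 and 0.0482 in T or NK, 0.0364 and 0.0323 in myeloid and 0.0939 and 0.0651 in B or plasma nuclei themselves. In rods the same ratio was 0.115 and 0.0978, in cones 0.111 and 0.0823 and in bipolar cells 0.0839 and 0.0608. Over all nuclei it was 0.126 and 0.0951. The controls, where no T or NK or B or plasma nucleus was gated, also held these marker UMIs. In horizontal cells the T or NK list stood at 230.2 and 253.7 CPM against 279.0 and 229.3 in the controls. The B or plasma list in bipolar cells was at 145.8 and 148.2 against 110.3 and 90.6. How much of the marker UMIs was immune RNA was not measured, so these are not ratios to immune RNA. The part of immune RNA in the GBP1 values of the 7 classes was not tested.

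The week 2 values come from the eyes of 1 animal in each arm and carry no p-value. GBP1 was higher in both AAV-injected eyes than in both vehicle eyes in 8 of the 8 classes, by the narrowest margin in horizontal cells (4.94 against 4.85 CPM), and at least 6.16-fold higher in myeloid nuclei, whose vehicle eyes held 0 UMIs. The share of all genes that separate these eyes in the same way is not given here. With 1 animal in each arm, this count cannot tell AAV from the animal or the batch label. The mean of the eyes was 37.0-fold higher in Müller glia, 10.3-fold in rods, 8.03-fold in amacrine cells, 5.62-fold in ganglion cells and 3.62-fold in horizontal cells. The eyes of animal 7221 were far apart in GBP1: right over left was 3.92 in Müller glia (118.8 and 30.3 CPM), 3.74 in ganglion cells (34.3 and 9.17), 4.84 in horizontal cells (23.9 and 4.94) and 2.66 in rods (24.9 and 9.37). The median over the 8 classes was 3.09, with the right eye higher in 7. For MX1 the same ratio was 1.08 to 1.67 with a median of 1.36, and for GBP2 it was 0.504 to 1.95 with a median of 1.13. In the vehicle eyes right over left had a median of 0.909 for GBP1. All 4 capture lanes of each eye repeated this, with 13.7 to 16.7 CPM of GBP1 on the left and 43.0 to 47.3 on the right over all nuclei, so that within the same animal GBP1 differed between the eyes far more than MX1 did.

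Among the tested classes with GBP2 in every control, GBP2 at week 2 had its largest fold in Müller glia, with 38.5 and 75.2 CPM in the left and right AAV-injected eyes against 23.5 in each vehicle eye, 2.42-fold in the means. In rods it had 30.9 and 36.9 CPM against 24.5 and 24.6. Its median over classes was 1.23-fold, with horizontal and myeloid nuclei overlapping.

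The change of GBP1 from vehicle to AAV was compared between weeks in a fit over 6 animals, the eyes of a week 2 animal summed. In ganglion cells it was larger at week 4 by 3.29 ± 0.655 on the log2 scale (SE), which missed the threshold at edgeR's adjusted p = 0.0529. With left eyes only at both weeks the difference was 4.39 and passed at edgeR's adjusted p = 0.0282, so this call depends on whether the right eyes of week 2 are included. In the other neuronal classes and Müller glia GBP1 did not come near, with edgeR's adjusted p from 0.35 to 0.982. In myeloid cells, whose controls held 0 GBP1 UMIs, the difference could not be estimated (SE 1.62e+03). GBP2 passed in 0 of 8 classes, with edgeR's adjusted p from 0.709 to 0.987 and 0 at an unadjusted p under 0.05. MX1 passed in Müller glia. The share of genes that differed between weeks in either direction was 0.0515% in rods, 0.0156% in cones, 0% in bipolar cells (2453 genes had an unadjusted p under 0.05), 0.0427% in amacrine, 0.162% in horizontal and 0.128% in ganglion cells, 4.35% in Müller glia and 0.137% in myeloid cells. The spread in this fit comes from the week 4 animals alone, because each week 2 group is 1 animal, so these p-values assume that week 2 animals vary like those of week 4 and cannot separate the week from the animal.

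Other genes of the interferon gamma pathway were read from fixed lists. IFNG itself, the ligand, was rare: 16 and 21 UMIs in T or NK nuclei of animals 7248 and 7249, in 14 of 759 nuclei (1.84%, 95% exact binomial interval 1.01 to 3.08) and 14 of 628 (2.23%, 1.22 to 3.71). Over all nuclei it had 22 and 34 UMIs there, 3 and 1 in the week 4 vehicle retinas, and 3 and 5 in the left and right AAV-injected eyes of week 2 against 2 and 5 with vehicle. In all nuclei together, where 6.71% of genes were called higher, IFNG passed the test at a log2 fold change of 3.33 ± 0.605 (SE, edgeR adjusted p = 0.0251). The vehicle retinas held 0 T or NK nuclei at week 4, so the sum over all nuclei compares retinas of different cell composition. More T or NK nuclei and more IFNG per nucleus cannot be told apart in it.

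Both receptor subunits were present in every tested class, and edgeR called neither in any of the 8. IFNGR1 had an unadjusted p under 0.05 in 0 classes and a DESeq2 call in 0, while IFNGR2 had 5 classes at that unadjusted p and 1 DESeq2 call, in myeloid cells. Those 5 were rods, cones, bipolar cells, Müller glia and myeloid cells. At that cut were 6878 of 22776 genes tested in rods, 2781 of 17570 in cones and 3352 of 18962 in bipolar cells. In Müller glia 4889 of 15141 were, and in myeloid cells 1695 of 9694. DESeq2 called 321 genes higher and 289 lower of 23052 in myeloid cells. IFNGR1 had 12.8 and 11.5 CPM in ganglion cells against 16.8 and 14.3 in the controls, and 7.72 and 7.595 in Müller glia against 7.00 and 5.23. IFNGR2 had 28.2 and 23.1 CPM in ganglion cells against 25.3 and 25.3, and 576.9 and 517.4 in myeloid nuclei against 360.2 and 147.7 (log2 fold change 1.43, edgeR adjusted p = 0.054). IRF1, a transcription factor that binds GBP promoters, passed in 7 classes, all but the myeloid one. In ganglion cells it had 22.8 and 22.5 CPM against 1.68 and 1.38 (3.91 ± 0.432 SE, edgeR adjusted p = 0.000118), and 2.21 and 6.95 in the left and right AAV-injected eyes at week 2. In Müller glia IRF1 was at 16.6 and 47.3 CPM in the left and right eyes at week 2, a gap between the eyes in the direction of GBP1.

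Of 23 interferon gamma-biased genes in the files, 20 of 23 tested were called higher in rods, 7 of 17 in cones, 13 of 18 in bipolar, 12 of 16 in amacrine, 9 of 11 in horizontal and 13 of 15 in ganglion cells, 14 of 16 in Müller glia and 7 of 19 in myeloid cells. The shares of all genes tested that were called higher, in the same order of classes, were 5.79%, 0.831%, 1.48%, 1.44%, 3.59%, 1.61%, 8.71% and 3.11%. None of the list was called lower, while 5.64%, 0.285%, 0.738%, 0.495%, 1.91%, 0.455%, 9.25% and 1.24% of all genes tested in these classes were. The median log2 fold change of the list was 3.33 in rods, 2.32 in cones, 2.58 in bipolar, 1.66 in amacrine, 3.66 in horizontal and 3.53 in ganglion cells and 3.39 in Müller glia, against -0.01 to 0.02 over all genes. With genes without control UMIs at their lower bound it was 3.20 in rods and 3.41 in horizontal cells. In myeloid cells it was 2.71, or 1.36 with the 6 genes without control UMIs at their lower bound, against 0.37 over all genes. In Müller glia the called members ran from CD274, the checkpoint ligand PD-L1 (17.7 and 21.6 CPM against 10.8 and 8.97), to IDO1, a tryptophan-degrading enzyme (4.73 and 26.9 CPM against 0.179 and 0). Of 24 type I-biased genes, 24 of 24 passed in rods and Müller glia, 23 of 23 in amacrine, 22 of 22 in horizontal, 17 of 18 in ganglion, 21 of 24 in bipolar, 18 of 23 in cones and 12 of 24 in myeloid cells, against the same shares of all genes, and none was called lower. Their median was 3.85 in ganglion cells, or 3.59 with the 5 genes without control UMIs at their lower bound, and 5.01 in Müller glia, or 4.85 so computed. In Müller glia they ran from USP18, a negative regulator of type I signaling (25.4 and 50.8 CPM against 12.4 and 13.6), to the antiviral helicase DDX60 (229.0 and 262.9 against 0 and 0.374). Members of each list also respond to the other interferon, so the counts do not separate the cytokines.

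Among 10 genes of receptors and signaling, 2 to 5 passed in each class, all higher, where 0.831% (cones) to 8.71% (Müller glia) of all genes tested were called higher. In Müller glia the smallest called change was that of IFNAR2, a type I receptor subunit, at 199.2 and 167.1 CPM against 97.1 and 105.8. Of the partners of guanylate-binding proteins in cell death, GSDMD, the pore former of pyroptosis, was called higher in Müller glia at 14.4 and 17.5 CPM against 3.23 and 2.43 (log2 fold change 2.44 ± 0.319 SE, edgeR adjusted p = 0.00109). NLRP3, an inflammasome sensor, was called higher in rods (2.66 ± 0.322 SE, edgeR adjusted p = 0.00989) and cones (3.35 ± 0.516 SE, edgeR adjusted p = 0.0404). Of the 5 partners in the files, 4 could be tested in rods and in myeloid cells, 3 in bipolar and 2 in amacrine cells. In cones and in Müller glia 1 could be tested, and in horizontal and ganglion cells 0. No other tested partner passed. Of all genes tested, 8.71% were called higher in Müller glia, 5.79% in rods and 0.831% in cones. Of 8 ligand genes in the files, 3 could be tested in rods, where IL12B was called higher (log2 fold change 3.80) and IFNE lower (-1.51). Of all genes tested in rods, 5.79% were called higher and 5.64% lower. In each of the other classes 0 to 2 ligand genes could be tested, and 0 were called. The immune markers given above moved in the same rod and cone nuclei, and their part in the NLRP3 and IL12B values was not tested.

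GBP5, the remaining family member listed by symbol, did not share the calls of GBP1. edgeR called it in 0 of the 6 classes in which it could be tested and DESeq2 in 0 of 7, with an unadjusted p under 0.05 in 1 class, the myeloid one (28.6 and 27.3 CPM against 0 in both controls, edgeR adjusted p = 0.258). There 1695 of 9694 genes were at that cut. GBP5 also lay above both controls in ganglion cells (6.04 to 8.28 against 3.23 to 5.05 CPM). It did so in Müller glia, not tested by edgeR (1.75 to 5.98 against 1.31 to 1.62). The share of all genes that separate the retinas in this way is not given here, so this is not read as a change. In rods, cones, bipolar, amacrine and horizontal cells the groups overlapped. Over all nuclei GBP5 had 5.89 and 4.96 CPM against 3.99 and 3.09 (edgeR adjusted p = 0.103). Its higher levels were in immune nuclei, 64.1 and 67.5 CPM in T or NK, 52.1 and 34.1 in B or plasma and 28.6 and 27.3 in myeloid nuclei of animals 7248 and 7249.

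The genes most like each member were sought by Pearson's r of log2(CPM + 1) over 64 profiles, 8 classes in 8 retinas, among 24193 genes with at least 200 UMIs. These profiles share retinas and libraries, and the myeloid profiles of the controls are shallow, so r is a description. For GBP1 the closest named genes were PSMB9, an immunoproteasome subunit (r = 0.928), and BST2, the virus-tethering protein tetherin (r = 0.898), beside 3 genes without a symbol (r = 0.89 to 0.906). MX1 followed GBP1 at r = 0.75. GBP2 was closest to PSMF1, a proteasome inhibitor (r = 0.911), RIPK2, a kinase of NOD signaling (r = 0.852), OTUD4 and USP37, both deubiquitinases (r = 0.835 and 0.823), and HNRNPD, an RNA-binding protein (r = 0.822). The members were related to each other at r = 0.456, and GBP2 to MX1 at r = 0.348.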

How the data were processed

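Nuclei of 8 pig retinas were profiled by droplet single-nucleus RNA sequencing. The authors aligned reads to Sscrofa11.1 with EGFP added and counted UMIs with Cell Ranger 8.0.0, and they deposited raw counts per gene and barcode for 4 lanes per retina, unnormalized, without cell types. The smallest barcode held 500 UMIs, and depth limits precision through counting error, given as exact intervals. Lanes share 18860 of 368982 distinct barcode sequences (5.11%), and nuclei were kept apart by lane.

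Nuclei were filtered by a mixture model of mitochondrial share after miQC (posterior 0.75) and gated as described. No doublets were removed, and 15.9% of nuclei held 3 or more markers of several classes and were gated only with a lead of 2 markers. Sums per retina and class were tested with edgeR 4.0.16 in R 4.3.3 (TMM, filterByExpr, quasi-likelihood, Benjamini-Hochberg per class, threshold 0.05), with scipy 1.17.1 for exact tests. The code was tested on simulated counts. The study compared cells of a type between AAV and vehicle at each time, and sums per animal were compared here. Alternatives were DESeq2 1.42.0, totals without TMM, no filter on low counts, other gates (4 markers with a lead of 3, 2 markers with a lead of 1, Leiden clusters), no mitochondrial filter, nuclei of at least 1000 UMIs, each week 4 retina left out, 6 animals with week as a term, left eyes only, and thinning. Groups came from the batch label. The members, MX1, the markers and the lists were chosen with earlier results of these data known. Genes named are the members, MX1, IFNG, IFNGR1, IFNGR2, IRF1, other GBP genes present, the largest and smallest called change of each list in Müller glia, and the 5 genes most like each member; IL12B, IFNE and NLRP3 were named as small counts after their values were seen. List genes not found by symbol, among them GBP3, GBP4, GBP6, GBP7, AIM2 and IL1B, were not analysed here. A listed gene and a promoter window are not reported here.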

Additional observations from a re-analysis of the deposited data

Results flagged for a closer look

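MX1, the type I readout set beside the members, changed less at week 4 than at week 2 in Müller glia, by a difference of -1.62 on the log2 scale (edgeR's interaction test over 6 animals, adjusted p = 0.0217). It stood at 852.4 and 1179 CPM in the week 2 AAV-injected eyes and at 378.2 and 536.9 in those of week 4, against 15.3 to 21.9 with vehicle. GBP1 in the same nuclei had 30.3 and 118.8 CPM at week 2 and 102.3 and 83.55 at week 4, and its difference between weeks was -0.70 (adjusted p = 0.35). With left eyes only, the MX1 difference was -1.29 (adjusted p = 0.0614) and that of GBP1 0.98 (adjusted p = 0.293). The gated Müller nuclei numbered 1873 and 2739 at medians of 3021 and 3818 UMIs in the week 2 AAV-injected eyes, and 630 and 266 at 6072.5 and 6117.5 in those of week 4, against 1981 to 2789 at 2268 to 3221.5 with vehicle, and the part of this in the difference was not tested. Each week 2 group is 1 animal and adds no spread between animals, so the p-value assumes the spread of week 4, and week, animal and batch label cannot be told apart.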

How the results depend on the processing

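GBP1 was called higher in 7 or 8 classes and MX1 in 7 or 8 under every alternative run. With the stricter gate only 7 classes had enough nuclei. GBP2 was called in 1 class in the main analysis and in 2 with the looser gate, and in 0 to 2 with 1 retina left out (0 without animal 7248, 2 without 7249, whose lone partner is then assumed to vary like the controls). Single week 4 values by class kept direction and side of the threshold in 101 of 102 alternatives for GBP1, 97 of 100 for GBP2 and 103 of 103 for MX1. Differences between weeks are not in these tallies, and some of them changed, as given below. Using left eyes only, the median fold of GBP1 at week 2 over 7 classes was 3.12 in place of 5.62. The same choice reversed differences between weeks that had not passed: GBP1 in rods (0.52), bipolar cells (0.88) and Müller glia (0.98), GBP2 in cones (0.13), and MX1 in ganglion (0.21) and myeloid cells (-1.62). It kept the number of classes with a difference between weeks at 1, for GBP1 in ganglion cells in place of MX1 in Müller glia. The cause was not tested. Thinning to 1000 UMIs took the mean share of ganglion cell nuclei with GBP1 from 62.4% to 14%, by construction. Leaving out either week 4 AAV animal only returns the GBP1 to MX1 ratio of the other in these nuclei (2.21 or 3.56), so it cannot show how stable the ratio is. No paired analysis was possible because replicate numbers follow accession order and the animals of the groups differ. Depth limits GBP1 in the controls of ganglion cells (6 and 9 UMIs), horizontal cells (6 and 12) and myeloid cells (0), and 2 animals per group limit every comparison.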
